A study of Mus musculus with 6 samples.

Results

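Fatty acid activation and oxidation genes were taken as a list of 38 mouse gene symbols, which covers the enzymes that tie a fatty acid to coenzyme A, carry it into the mitochondrion and take it apart there or in the peroxisome. Of these 38 genes, 37 were among the 19251 genes of the deposited count table, and all 37 passed the filter on low counts and were tested, with 19109 genes tested in all. Acox2, which encodes a peroxisomal oxidase of branched-chain acyl-CoA, was not analysed here.

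The study asked how intermittent fasting acts on midbrain signalling in a Parkinson's disease model. Polyadenylated RNA of the substantia nigra was sequenced in 6 libraries from C57BL/6 mice. All 6 carried rAAV-A53T-aSynuclein, that is, a recombinant adeno-associated virus with a form of alpha-synuclein mutated as in some familial Parkinson's disease, so neither group lacked the vector. The labels leave unsaid which promoter drives the vector, which side was injected, and how old and of which sex the mice were. The 3 ad libitum libraries came from mice with constant access to food that were moved between cages as often as the others. The 3 fasting libraries came from mice deprived of food for 24 hours on 3 days of each week. Diets began 2 weeks after surgery and lasted 10 weeks. They also leave unsaid how long before tissue collection the last fast ended. Since nothing ties each library to an animal of its own, p-values measure only the spread between these samples, which may be technical.

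A fatty acid must be joined to coenzyme A before a cell can burn it, store it or build it into membranes, and acyl-CoA synthetases of the ACSL family do this. For oxidation of long chains, CPT1 on the outer mitochondrial membrane swaps coenzyme A for carnitine, a step that malonyl-CoA blocks, and CPT2 swaps it back inside. Each round of beta-oxidation then runs through an acyl-CoA dehydrogenase, a hydratase, a hydroxyacyl-CoA dehydrogenase and a thiolase, and releases acetyl-CoA. Electrons from the dehydrogenases pass through the electron transfer flavoprotein to the respiratory chain. Peroxisomes shorten very long and branched chains by a parallel route. In the brain, astrocytes do most of the mitochondrial oxidation of fatty acids, while neurons rely mainly on glucose, lactate and ketone bodies.

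Hadha and Hadhb encode the alpha and beta subunits of the mitochondrial trifunctional protein, and they share a promoter region: in RefSeq (GRCm38.p6) their start sites lie 273 bases apart on opposite strands, and the windows of 250 bases before each start have 228 bases in common. The Hadhb window is printed because both genes were lower in every fasting library than in any ad libitum one, the Eci1 window because that gene had the largest difference of the list, and the Cpt1a window because that gene, the carnitine transferase of most tissues, had nearly no difference. They lie at chr5:30155003-30155252, chr17:24426433-24426682 and chr19:3323051-3323300 on the plus strand of GRCm38.p6, a build other than that of the counts. Capitals mark the GC box, the site of SP1-type factors (GGGCGG, or CCGCCC where it is read on the other strand), and the CCAAT box, the site of NF-Y.
Hadhb: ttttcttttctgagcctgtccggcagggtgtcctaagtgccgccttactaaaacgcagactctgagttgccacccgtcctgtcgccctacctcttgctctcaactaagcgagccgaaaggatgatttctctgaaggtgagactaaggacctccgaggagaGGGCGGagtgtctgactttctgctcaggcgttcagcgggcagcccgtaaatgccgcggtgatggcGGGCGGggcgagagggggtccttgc
Eci1: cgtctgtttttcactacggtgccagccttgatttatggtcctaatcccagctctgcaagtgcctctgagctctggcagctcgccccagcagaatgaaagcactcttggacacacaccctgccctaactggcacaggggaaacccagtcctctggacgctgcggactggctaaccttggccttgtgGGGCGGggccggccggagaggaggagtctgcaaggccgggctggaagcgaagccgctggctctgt
Cpt1a: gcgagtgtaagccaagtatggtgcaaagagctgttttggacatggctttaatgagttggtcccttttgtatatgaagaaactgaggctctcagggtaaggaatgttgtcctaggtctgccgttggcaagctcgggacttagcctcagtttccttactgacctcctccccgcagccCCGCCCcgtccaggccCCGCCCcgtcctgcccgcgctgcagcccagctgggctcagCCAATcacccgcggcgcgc
The Hadhb window holds 2 GC boxes and no CCAAT box, the Eci1 window 1 GC box, and the Cpt1a window 2 GC boxes and 1 CCAAT box. All 3 windows thus hold a GC box, whatever the difference of the gene between the diets.

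RefSeq promoter windows were matched for 31 of the members (34 windows, since some genes have more than 1 start). On either strand, GGGCGG was in 25 of the 34 windows (73.5%) and in 32.7% of all 32851 promoter windows of the same length. Those 32851 windows were not limited to genes tested here. The Hadha and Hadhb windows, with 228 bases in common, both count among the 25. CCAAT was in 17 of 34 (50%) and in 33.8% of all windows. The site of NRF1, a factor of many mitochondrial genes, searched as GCGCATGCGC, was in the windows of Acad12 and Etfdh (5.88%, against 0.782% of all). TCAAGGTCA, the element of estrogen-related receptors, was in that of Acsl6 (2.94%, against 0.387%). AGGTCANAGGTCA, the direct repeat bound by PPAR with RXR, was in none of the 34 and in 0.0335% of all windows. GC boxes are made of G and C, and the member windows had a median GC content of 60.0%, against 52.4% in all windows. These matches describe the letters of these windows alone.

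Each library held between 42990234 and 48179706 counts, so both diets were sequenced to a like depth. Within neither group did 2 libraries match to within counting error. Ad libitum replicate 1 differed from the other 2 ad libitum libraries by a chi-square per degree of freedom of 77.7 and 45.5, and from its nearest fasting library by 28.8. Ad libitum replicate 2 held cholinergic markers (3 genes) at a summed 77.0 CPM (counts scaled to a common library total, with the TMM factors of edgeR), where the lowest ad libitum library had 3.22 and the fasting libraries 2.08 to 4.41. That library also had the highest ad libitum sums of hypothalamic (526 CPM) and choroid plexus markers (99.3 CPM), where the lowest ad libitum sums were 4.87 and 16.8 CPM. Its medians of ependymal, oligodendrocyte, oligodendrocyte precursor, microglia, and pericyte and fibroblast markers were also the highest ad libitum ones. The 8 dopaminergic neuron markers were detected in both groups, with sums of 756 to 1943 CPM ad libitum and 717 to 1334 CPM fasting. Of these markers, 7 were lower and 1 higher in the fasting libraries, with a median log2 fold change of -0.31. None of the 8 had an unadjusted p below 0.05. Their median log2 deviation from the ad libitum mean ran from -0.49 to 0.94 ad libitum and from -0.55 to 0.45 fasting. With such a spread, 0 of 8 does not show equal levels. Th, the gene of the rate-limiting enzyme of dopamine synthesis, was at 86.3, 92.6 and 236 CPM ad libitum and 105, 189 and 93.7 CPM fasting.

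All 37 measured genes were expressed in the substantia nigra libraries, from 1.09 to 379 CPM. Their levels can be compared between genes per kb of the longest coding transcript in GENCODE M21. Acsl3 had the highest length-scaled level, at 71.3 CPM per kb as the mean of both diets, followed by Acsl6 at 57.8. Both activate long-chain fatty acids and are known to be abundant in brain. Hadhb (46.6 CPM per kb), Echs1 (34.0), Acaa1a (32.5), Etfb (25.5), Hsd17b4 (24.2) and Cpt1c (24.1) came next. Over the 6 libraries, Acsl3 ranged from 61.4 to 80.2 CPM per kb and Acsl6 from 53.1 to 65.3, so their ranges met, and those of Hadhb (39.1 to 54.0) and Acsl6 met as well.

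Cpt1c, a neuronal relative of CPT1 that sits in the endoplasmic reticulum, thus stood above Cpt1a (9.48 CPM per kb, rank 26 of 37), and the ranges of these genes over the libraries did not meet. Cpt1b, the muscle form, was the lowest of all at 0.551 CPM per kb, and 79.7% of its transcript sequence, in words of 31 bases, is shared with an overlapping gene model, Gm44502, so its value is uncertain. Cpt2 stood at 4.35 CPM per kb. Of the straight-chain dehydrogenases, Acadl (20.8) and Acadvl (19.9), for long and very long chains, were above Acadm (14.4), for medium chains, and Acads (3.86), for short ones. The lowest length-scaled levels besides Cpt1b belonged to Acad10 (0.915), Acad12 (1.15) and Ehhadh (1.53), the peroxisomal bifunctional enzyme.

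**Figure D1:**
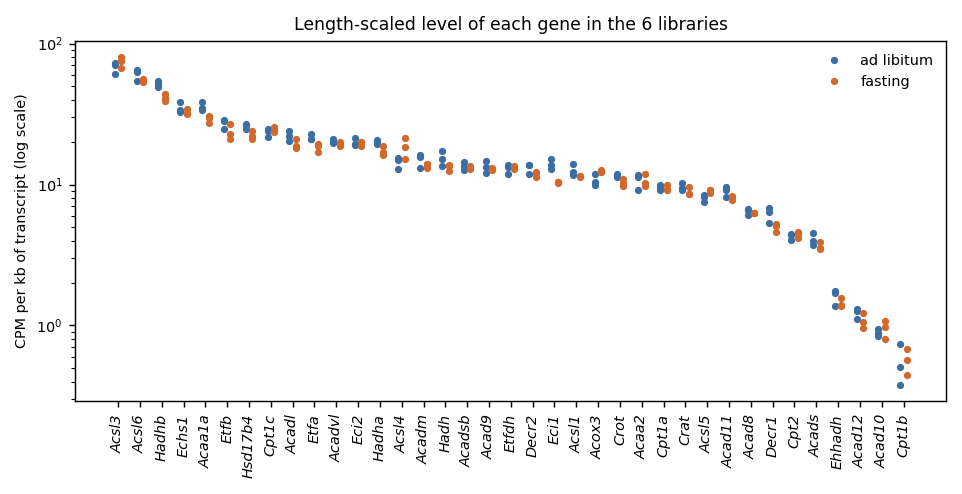
Length-scaled level of the 37 measured genes (y axis, log scale, TMM-scaled CPM per kb of the longest coding transcript), with 1 point per library (blue, ad libitum; orange, fasting), ordered by the mean of both diets. Levels run from 71.3 for Acsl3 to 0.551 for Cpt1b, and for most genes the points of both diets lie close together.

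None of the 37 genes was called between the diets by edgeR's quasi-likelihood test at an adjusted p below 0.05, where 0.497% of all genes tested were called (95 genes). At an unadjusted p below 0.05 stood 11 members. Of these, 8 were lower in the fasting libraries, or 21.6% of the list, against 11.6% of all genes tested, and 3 were higher, or 8.11% against 8.74%. All 3 fasting libraries lay below all 3 ad libitum libraries for 9 members (24.3%, against 15.0% of all genes), and above them for 2 members (5.41%, against 12.5%). Without ad libitum replicate 1, the library nearest to the fasting ones, 11 members were lower and 2 higher at an unadjusted p below 0.05. In the same fit 14.3% of all genes were lower and 27.4% were at that p in either direction. Without ad libitum replicate 2, which held the most cholinergic, hypothalamic and choroid plexus marker RNA, 11 were lower and 0 higher. In that fit 10.4% of all genes were lower and 18.5% were at that p in either direction. Without fasting replicate 3, 6 were lower and 0 higher, where 8.06% of all genes were lower and 13.0% in either direction. Leaving out ad libitum replicate 3 gave 8 lower and 2 higher (9.22% of all genes lower, 16.7% in either direction). Leaving out fasting replicate 1 gave 7 and 1 (7.81% and 12.8%), and fasting replicate 2 gave 10 and 2 (9.90% and 17.5%). By limma-voom 0 members were called as well. By DESeq2 3 were called, all lower in the fasting libraries: Hadhb, Eci1 and Acaa1a (adjusted p of 0.00301, 0.00386 and 0.0388), where DESeq2 called 7.26% of all genes.

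The differences were small throughout. The log2 fold change, fasting minus ad libitum, ran from -0.43 for Eci1 (1.35-fold lower) to 0.35 for Acsl4 (1.28-fold higher). It was below 0 for 28 of the 37 members (75.7%), against 50.9% of all genes tested. Its median was -0.13 over the members (1.09-fold lower) and -0.0050 over all genes. The members were chosen with earlier results of these data known. These comparisons with all genes, here and above, thus describe the list and do not test it. In each library, the median over the members of log2 CPM minus the ad libitum mean was -0.06, 0.02 and 0.05 in ad libitum replicates 1 to 3, and -0.11, -0.08 and -0.13 in the fasting replicates. The fasting libraries were thus all below the ad libitum ones, with ad libitum replicate 1 the nearest to them. For 9 members the 95% interval of the difference lay wholly within a 1.2-fold change in either direction, and for the other 28 it reached past it.

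**Figure D2:**
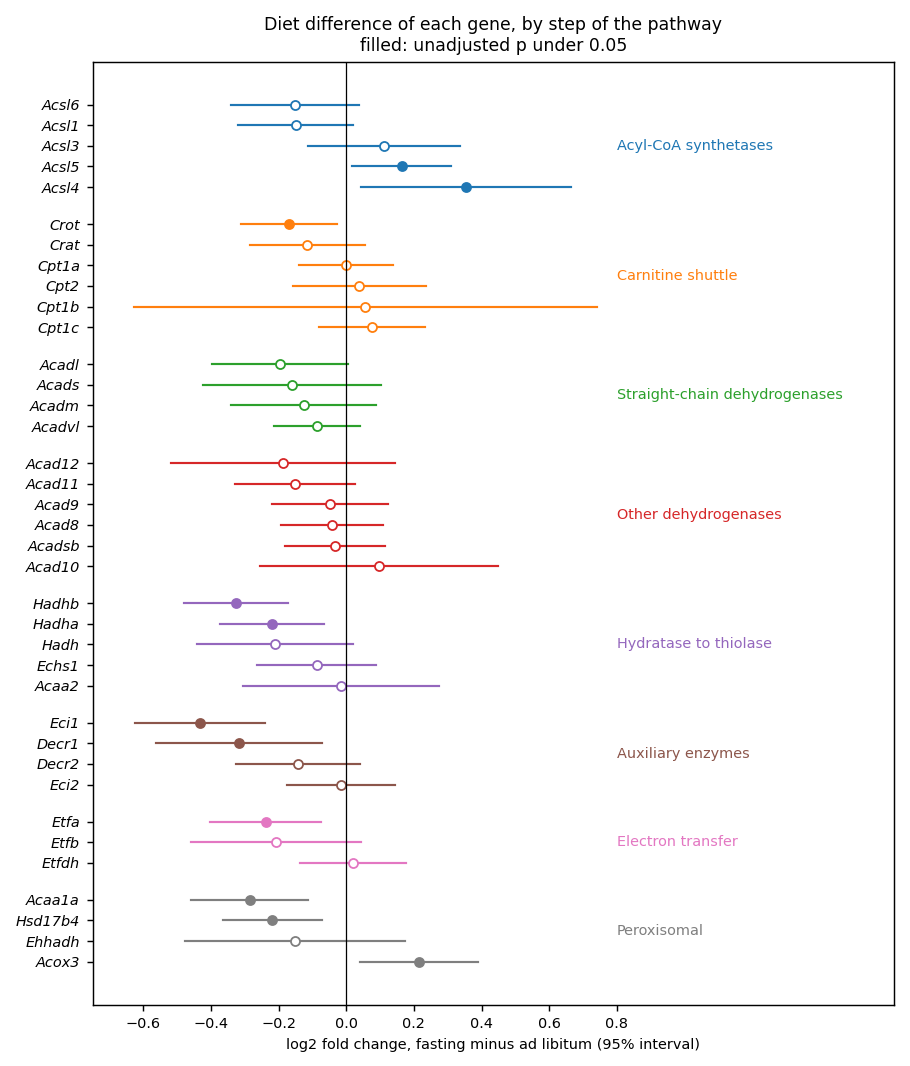
Log2 fold change of each measured gene, fasting minus ad libitum (x axis), with its 95% interval from the edgeR fit, grouped by step of the pathway. Filled points are the 11 genes at an unadjusted p below 0.05, and most points lie left of 0, from -0.43 for Eci1 to 0.35 for Acsl4.

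Among the 5 acyl-CoA synthetases of the activating step, 3 had a higher mean in the fasting libraries and 2 a lower one, with a median log2 fold change of 0.11. Acsl4, which prefers arachidonic acid and feeds it into membrane phospholipids, was at 78.4, 68.3 and 81.0 CPM ad libitum and 113, 80.5 and 98.1 CPM fasting. The highest ad libitum library lay just above the lowest fasting one. The log2 fold change was 0.35 with a standard error of 0.130 (edgeR adjusted p = 0.198). Acsl5, found on mitochondria and endoplasmic reticulum, was at 34.6, 31.8 and 35.6 CPM ad libitum and 36.8, 38.8 and 38.8 CPM fasting, so the groups did not overlap (log2 fold change 0.16, standard error 0.062, edgeR adjusted p = 0.205).

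Acsl3, which loads fatty acids into lipid droplets, was at 290, 242 and 280 CPM ad libitum and 317, 265 and 297 CPM fasting, with overlapping groups and a log2 fold change of 0.11. Acsl1, the main form of fat and liver, was at 48.0, 54.5 and 45.8 CPM ad libitum and 44.6, 44.9 and 44.1 CPM fasting. Each fasting library was below each ad libitum library, by 0.15 on the log2 scale in the fit (unadjusted p = 0.0769). Acsl6, which enriches brain membranes in docosahexaenoic acid, was at 379, 315 and 366 CPM ad libitum and 324, 321 and 308 CPM fasting, and its groups overlapped (log2 fold change -0.15). In ad libitum replicate 2, Acsl3, Acsl4, Acsl5 and Acsl6 all had their lowest ad libitum value, while Acsl1 had its highest.

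For the carnitine shuttle, 3 of 6 genes were on each side of 0, and the median log2 fold change was 0.02. Cpt1a was at 40.6, 39.3 and 42.9 CPM ad libitum and 39.7, 40.3 and 42.8 CPM fasting. Its group means were both 40.9 CPM, with a log2 fold change of -0.0013 and a 95% interval from -0.14 to 0.14. With 3 libraries a diet, a difference within that interval is not excluded. Crot, the peroxisomal carnitine octanoyltransferase that exports shortened chains, was at 35.8, 34.9 and 33.9 CPM ad libitum and 29.5, 32.7 and 30.9 CPM fasting, with every fasting library below every ad libitum one (log2 fold change -0.17, standard error 0.060, edgeR adjusted p = 0.183).

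Crat, which handles acetyl-carnitine, was at -0.12, Cpt1c at 0.08 and Cpt2 at 0.04 on the log2 fold change scale. Cpt1b was at 1.46, 1.09 and 2.14 CPM ad libitum and 1.64, 1.97 and 1.28 CPM fasting, and its interval was the widest of the list (-0.63 to 0.74). None of these 4 genes had an unadjusted p below 0.05.

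The 4 straight-chain acyl-CoA dehydrogenases of mitochondria, which start each round, were all lower on average in the fasting libraries (median log2 fold change -0.14), and 0 of 4 had an unadjusted p below 0.05. Acadl had the smallest p of them, with 39.3, 42.1 and 46.2 CPM ad libitum against 34.9, 40.6 and 35.9 CPM fasting (log2 fold change -0.20, unadjusted p = 0.0553). Fasting replicate 2 lay within the ad libitum range. Acads was at -0.16, Acadm at -0.13 and Acadvl at -0.09, all with overlapping groups.

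Other members of the dehydrogenase family act mostly on branched or unusual chains, and 5 of 6 were below 0 with a median log2 fold change of -0.04. The smallest p was that of Acad11, with 32.8, 27.9 and 31.7 CPM ad libitum against 28.7, 27.6 and 26.9 CPM fasting (log2 fold change -0.15, unadjusted p = 0.0838), and its groups overlapped. Acadsb and Acad8, which work in the breakdown of isoleucine and valine, were at -0.03 and -0.04, and Acad9, also an assembly factor of respiratory complex I, at -0.05. Acad12 (-0.19) and Acad10 (0.10) share 21.3% and 22.9% of their sequence words with each other, so the split of reads between them is uncertain.

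In the later steps of the mitochondrial round, from hydratase to thiolase, all 5 genes were below 0, with a median log2 fold change of -0.21, and 2 of them had an unadjusted p below 0.05. Hadhb, the thiolase subunit of the trifunctional protein, was at 101, 107 and 111 CPM ad libitum and 80.1, 90.5 and 83.7 CPM fasting. The lowest ad libitum library stood above the highest fasting one, and the fit gave a 1.25-fold lower level (log2 fold change -0.33, standard error 0.065, edgeR adjusted p = 0.0703). Gm13910, a gene model elsewhere, has 19.5% of the sequence words of Hadhb in common with it, which leaves the reads of that stretch uncertain. Hadha, the subunit with hydratase and dehydrogenase activity, was at 78.4, 83.7 and 82.3 CPM ad libitum and 65.6, 75.3 and 68.8 CPM fasting, again with no overlap (log2 fold change -0.22, standard error 0.065, edgeR adjusted p = 0.133). In both subunits fasting replicate 2 was the highest fasting library.

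Hadh, the dehydrogenase of short hydroxy chains, was at -0.21 (unadjusted p = 0.0675), and Echs1, the short-chain hydratase, at -0.09. Acaa2, the medium-chain thiolase, was at -0.01 with a 95% interval from -0.30 to 0.27. All 3 had overlapping groups.

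Unsaturated fatty acids need auxiliary enzymes that move or reduce their bonds, and all 4 measured were below 0, with a median log2 fold change of -0.23. Eci1, the mitochondrial enoyl-CoA isomerase, was at 14.6, 15.7 and 17.3 CPM ad libitum and 11.8, 11.8 and 11.6 CPM fasting. The 3 fasting libraries were nearly equal and all below the lowest ad libitum library. This was the largest difference of the list (1.35-fold lower, log2 fold change -0.43, standard error 0.081, edgeR adjusted p = 0.0685). Decr1, the mitochondrial dienoyl-CoA reductase, was at 15.9, 19.0 and 20.1 CPM ad libitum and 15.1, 15.4 and 13.6 CPM fasting, so the groups did not overlap but ad libitum replicate 1 came close to the fasting libraries (log2 fold change -0.32, standard error 0.104, edgeR adjusted p = 0.160). Decr2, the peroxisomal counterpart of Decr1, was at -0.14, and Eci2, another enoyl-CoA isomerase, at -0.02, both with overlapping groups.

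Without ad libitum replicate 1, edgeR called 4 members: Eci1 (adjusted p = 0.0285), Hadhb (0.0369) and Decr1 (0.0416), all lower in the fasting libraries, and Acox3 (0.0370), higher. In that fit 6.18% of all genes were called. Over the 14 alternative settings, the adjusted p ran from 0.00386 to 0.290 for Eci1, from 0.00301 to 0.290 for Hadhb, from 0.0388 to 0.337 for Acaa1a, from 0.0416 to 0.413 for Decr1 and from 0.0370 to 0.449 for Acox3. No other member was called in any of them.

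**Figure D3:**
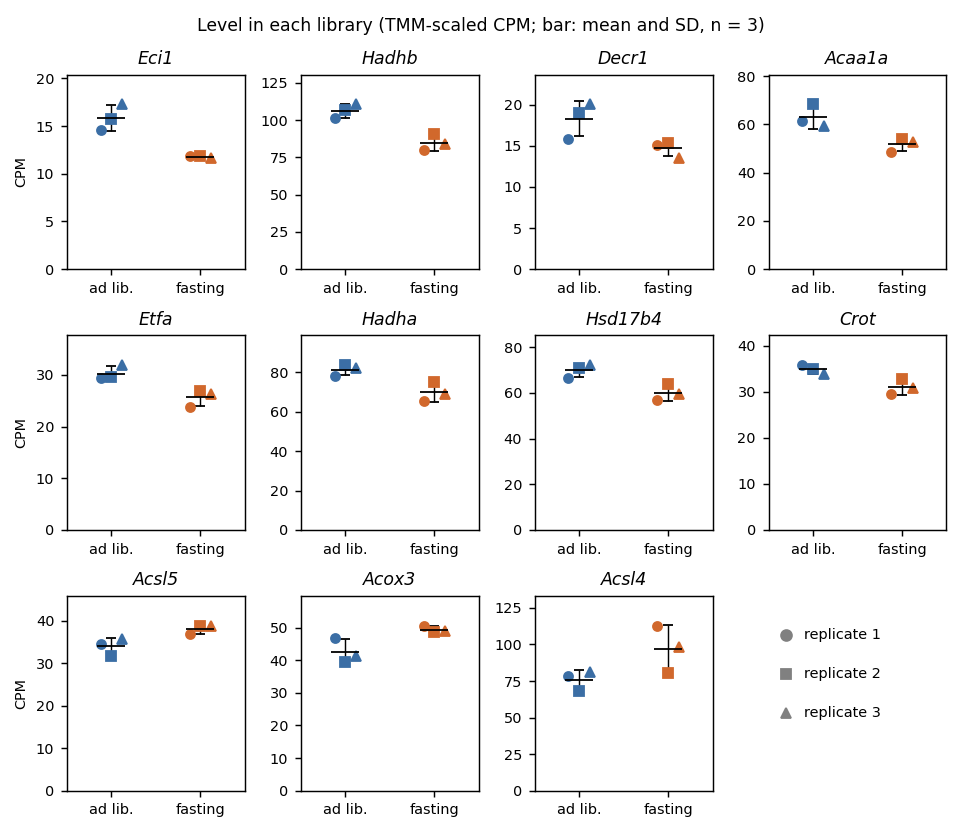
TMM-scaled CPM in each library (y axis, from 0) of the 11 genes at an unadjusted p below 0.05, with 1 marker per library and a bar for the mean and SD of 3 libraries. Hadhb lies at 101 to 111 CPM ad libitum and 80.1 to 90.5 CPM fasting, Eci1 is nearly level in the fasting libraries, and Acsl5, Acox3 and Acsl4 have the higher mean in the fasting libraries.

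In the electron transfer step, Etfa, the alpha subunit of the flavoprotein, was at 29.3, 29.5 and 31.9 CPM ad libitum and 23.8, 26.8 and 26.3 CPM fasting. All fasting libraries lay below all ad libitum ones (log2 fold change -0.24, standard error 0.069, edgeR adjusted p = 0.131). Etfb, the beta subunit, had a like mean difference of -0.21 but overlapping groups, and 49.9% of its sequence words are shared with other gene models, mostly the overlapping Gm45233. Etfdh, the dehydrogenase that hands the electrons to ubiquinone, was at 0.02, with a 95% interval from -0.14 to 0.18.

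Peroxisomal oxidation had members on both sides. Acaa1a, the peroxisomal thiolase, was at 61.4, 68.3 and 59.1 CPM ad libitum and 48.4, 54.1 and 52.5 CPM fasting (log2 fold change -0.29, standard error 0.073, edgeR adjusted p = 0.104), with no overlap. Its sequence words are shared to 16.9% with Acaa1b, a near copy. Hsd17b4, the D-bifunctional protein that follows the oxidase, was at 66.7, 70.9 and 72.2 CPM ad libitum and 57.0, 63.9 and 59.5 CPM fasting, also without overlap (log2 fold change -0.22, standard error 0.062, edgeR adjusted p = 0.125).

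Acox3, an oxidase of branched chains, went the other way, at 46.9, 39.4 and 41.2 CPM ad libitum and 50.5, 48.5 and 49.0 CPM fasting. The fasting libraries were close together and all above the ad libitum ones, of which replicate 1 was the highest (log2 fold change 0.21, standard error 0.074, edgeR adjusted p = 0.173). Ehhadh was at -0.15 with overlapping groups.

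Cell type markers differed between the same libraries. Of 12 oligodendrocyte markers, 12 were below 0 and 10 had an unadjusted p below 0.05, with a median log2 fold change of -0.53 and sums of 14510 to 19820 CPM ad libitum against 10273 to 12825 CPM fasting. Ugt8a, the galactosyltransferase of myelin lipid synthesis, was called (-1.25, edgeR adjusted p = 0.0422), and Ermn was at -0.78. All 11 microglia markers were below 0 at an unadjusted p below 0.05, with a median of -0.63, sums of 426 to 579 CPM against 329 to 335 CPM, and 3 called by edgeR: C1qa (-0.71, adjusted p = 0.0403), C1qb (-0.76, adjusted p = 0.0422) and Fcrls (-1.11, adjusted p = 0.0422). Ad libitum replicate 1 had the lowest median of these microglia markers among the ad libitum libraries, as it had of the fatty acid oxidation genes. It also had the lowest ad libitum median of astrocyte, oligodendrocyte precursor, pericyte and fibroblast, dopaminergic, cholinergic, choroid plexus and erythroid markers. The oligodendrocyte, endothelial, hypothalamic and ependymal medians were lowest in ad libitum replicate 3, and the neuron median in replicate 2. Without fasting replicate 1 or fasting replicate 3, edgeR called 0 genes in the whole table. The calls of Ugt8a, C1qa, C1qb and Fcrls, and that of Elovl5 described further on, were thus lost. They were also lost without ad libitum replicate 3, where edgeR called 1 gene, a higher one. With total counts only, and without robust shrinkage, edgeR called 2 lower genes in the whole table, so at least 3 of these 5 were lost there too.

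Of 10 astrocyte markers, 4 were lower and 1 higher at an unadjusted p below 0.05 (median -0.20, sums of 3930 to 4919 CPM ad libitum and 3611 to 3860 CPM fasting), with members on both sides of 0: Aqp4 was at -1.01, S100b at -0.44 and Gfap at -1.51, while Gjb6 was at 0.32, Slc1a3 at 0.18, Aldoc at -0.0095 and Slc1a2 at -0.10. Of 7 neuron markers, 1 was higher, Stmn2 (0.23), and the median was 0.14, with sums of 4636 to 6037 CPM and 5511 to 5849 CPM. Oligodendrocyte precursor markers had 2 of 5 lower (Cspg4 -0.27, Gpr17 -0.57), endothelial markers 3 of 7 lower and 1 higher (Cdh5 -0.45, Slco1a4 0.28), and pericyte and fibroblast markers 2 of 7 lower (Rgs5 -0.38, Col1a1 -0.55), at an unadjusted p below 0.05. Ependymal markers had 3 of 5 higher, from low levels (Tmem212 4.75, Ccdc153 4.28), and Foxj1 was at 0.07. Their median deviation from the ad libitum mean was 1.89 and 1.95 in fasting replicates 1 and 3 but 0.20 in fasting replicate 2, below the 0.58 of ad libitum replicate 2. The 3 cholinergic, 6 measured hypothalamic, 5 choroid plexus and 5 erythroid markers had 0 at an unadjusted p below 0.05. These lists varied many-fold between ad libitum libraries, so this does not show equal levels. Hypothalamic sums were 4.87 to 526 CPM ad libitum and 116 to 148 CPM fasting. Choroid plexus sums were 16.8 to 99.3 and 16.6 to 31.3 CPM, and erythroid sums 430 to 1736 and 254 to 657 CPM. Below 0 were 3 cholinergic, 3 hypothalamic, 4 choroid plexus and 5 erythroid markers. No marker of any list was at 0 in all libraries. The part of these shifts in the differences of fatty acid oxidation genes was not tested, and in bulk tissue fewer cells of a type and less RNA per cell cannot be told apart.

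**Figure D4:**
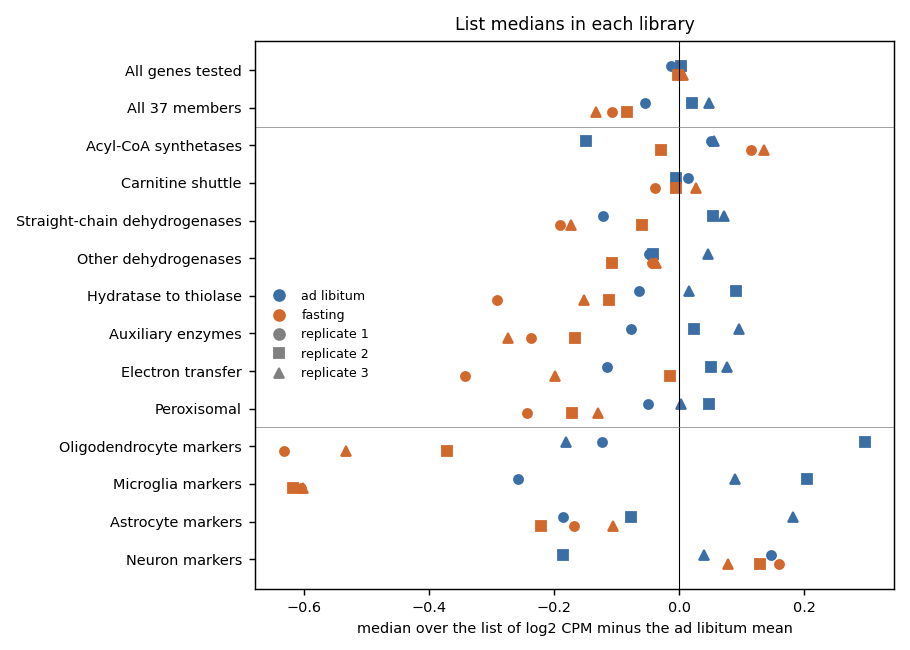
Median over each list of log2 CPM minus the ad libitum mean (x axis), with 1 marker per library (blue, ad libitum; orange, fasting), for all genes, the 37 measured genes, their 8 roles and 4 marker lists. The fasting libraries lie left of the ad libitum ones for all 37 genes together (-0.13 to -0.08 against -0.06 to 0.05) and for the hydratase to thiolase, auxiliary and peroxisomal steps, and also for oligodendrocyte and microglia markers.

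Genes around the pathway were read from 11 lists of their supply, storage, synthesis and control. Of their 156 tested genes 1 was called (0.641%, near the 0.497% of all genes). Counts at an unadjusted p below 0.05 in these lists stand against 11.6% lower and 8.74% higher over all genes. That gene was Elovl5, which lengthens polyunsaturated fatty acids. It fell, with 120, 139 and 125 CPM ad libitum, 84.1, 93.4 and 83.1 CPM fasting and no overlap (log2 fold change -0.56, standard error 0.077, edgeR adjusted p = 0.0439). In its list of synthesis, elongation and desaturation, 11 of 26 genes were lower and 1 higher at an unadjusted p below 0.05, with a median log2 fold change of -0.10. Elovl7 was at -0.70 and Scd2, a desaturase of the brain, at -0.36 in that list. Acaca and its mitochondrial form, Acacb, both make malonyl-CoA, which blocks CPT1, and were at -0.11 and 0.26. Mlycd, which removes malonyl-CoA, was at -0.03, and none of these genes had an unadjusted p below 0.05.

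For carnitine supply, 1 of 5 measured genes was lower at an unadjusted p below 0.05: Slc22a5, the carnitine transporter of the plasma membrane, was at 15.3 ± 1.56 CPM ad libitum and 11.8 ± 1.03 CPM fasting (SD, n = 3), a log2 fold change of -0.36. Slc25a20, the carrier that moves acylcarnitine across the inner membrane, was at -0.16. Among uptake and binding genes, 1 of 10 was lower, Fabp7, the fatty acid binding protein of astrocytes and their precursors, at 20.9, 20.2 and 29.7 CPM ad libitum against 12.9, 14.5 and 11.6 CPM fasting (log2 fold change -0.86, edgeR adjusted p = 0.0712). Dbi, the acyl-CoA binding protein, was at -0.25. Of 8 other acyl-CoA synthetases, 3 were lower and 1 higher (Acsf2 -0.37, Aacs 0.36), and of 12 thioesterases, which release the fatty acid again, 3 were lower and 1 higher (Them4 -0.34, Acot6 -0.32).

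The list of peroxisome biogenesis and import had 2 of 21 genes lower and 1 higher at an unadjusted p below 0.05 (Pex6 -0.24, Pex5l -0.42). Its median was -0.02, and neither count is above the share of all genes. Pex5l stands in this list by its likeness in name to Pex5, and a part in peroxisomes was not examined. Other peroxisomal lipid enzymes had 3 of 9 lower, with Cat, the catalase that removes the peroxide of the oxidases, at -0.24 and Agps, of ether lipid synthesis, at -0.22. Branched-chain amino acid and propionate breakdown, which shares the flavoprotein with fatty acid oxidation, had 5 of 23 lower and 21 of 23 below 0 (median -0.10, Hibch -0.20, Hibadh -0.22).

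A list of lipid-related nuclear receptors with their coactivators and corepressors had 3 of 16 lower at an unadjusted p below 0.05, among them Esrrg, an estrogen-related receptor of oxidative genes (-0.24), and Nr1h2, a liver X receptor of cholesterol and lipid synthesis genes (-0.19). Ppara was at 2.84 ± 0.109 CPM ad libitum and 2.80 ± 0.490 CPM fasting (SD, n = 3), and Ppargc1a at 87.0 ± 6.00 and 82.3 ± 0.538 CPM. Of 11 measured PPAR targets known from fasting, 1 was higher (Angptl4, an inhibitor of lipoprotein lipase, 0.60) and 1 lower (Vldlr, -0.20), with a median of 0.24. Pdk4, which spares glucose, was at 0.08, with overlapping groups.

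Lipolysis and lipid droplet genes had 2 of 15 higher and 3 lower at an unadjusted p below 0.05. Plin4, a lipid droplet coat protein, was at 13.3, 26.6 and 17.2 CPM ad libitum and 70.2, 56.3 and 74.8 CPM fasting, 3.52-fold higher with no overlap (log2 fold change 1.82, standard error 0.273, edgeR adjusted p = 0.0618). Abhd5, the coactivator of adipose triglyceride lipase, was at 23.8 ± 2.11 CPM ad libitum and 17.9 ± 0.908 CPM fasting (SD, n = 3), a log2 fold change of -0.41. The lipase itself, Pnpla2, stood on the other side, at 29.2, 29.3 and 28.8 CPM ad libitum and 33.9, 32.6 and 34.4 CPM fasting, with no overlap (log2 fold change 0.21, edgeR adjusted p = 0.0961).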

How the data were processed

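The 6 libraries were assigned to their diets by the labels, and the columns of the deposited table were matched to libraries by name. Values are estimated counts for each gene as the authors deposited them in 1 table, already whole numbers (rounding changed 0 values) and not scaled between libraries. Salmon, DESeq2 1.40.2 and the mouse build GRCm39 (mm39) were used, per the submitters' processing notes, which give neither role nor order. They do not name the annotation release or say whether counting used strand. No gene summed to under 60 counts over the 6 libraries, and 0 columns of samples were set aside.

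From these counts, genes were filtered with filterByExpr (142 untested), scaled with TMM factors and compared by edgeR 4.0.16 (quasi-likelihood test, two-sided, robust shrinkage), under R 4.3.3, with Benjamini-Hochberg adjustment over all genes tested. The fit had 4 residual and 3.04 prior degrees of freedom, with a common biological variation (CV) of 0.171. Standard errors were derived from the log2 fold change and its F statistic, and 95% intervals use the same degrees of freedom. Log2 levels have a prior count of 2. The alternatives (14) were 2 other scalings, DESeq2 1.42.0, limma-voom 3.58.1, edgeR without robust shrinkage, 2 other filters, the sample number as a block, and leaving out each library. The fit was tested on simulated data with planted changes larger than any difference of the members, so that test does not cover differences as small as theirs.

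The members, roles, pathway lists and marker lists were chosen with earlier results of these data known. Values in every library are given for members at an unadjusted p below 0.05, the 3 highest and 3 lowest fold changes, and the member of smallest p in each role. Those of Cpt1a, Cpt1b, Acsl1, Acsl3 and Acsl6 were added after their values were seen. From each other list, called genes and up to 2 of smallest p are named, and Gfap, Gjb6, Slc1a3, Aldoc, Slc1a2, Foxj1, Pnpla2, Ppara, Ppargc1a, Pdk4, Acaca, Acacb, Mlycd and Th were looked up for their known roles or after their values were seen. Transcript lengths, overlaps and shared 31-base words come from GENCODE M21 on GRCm38, and promoters from RefSeq on GRCm38.p6, a build other than that of the files.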

Additional observations from a re-analysis of the deposited data

How the results depend on the processing

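Over the 14 alternatives the median log2 fold change of the 37 measured genes stayed between -0.14 and -0.10, and the members' count of groups that do not overlap was 11 under both other scalings. No member was called except under DESeq2 (3 members) and without ad libitum replicate 1 (4 members), so that leaving out 1 library gave 0 to 4. The count of members at an unadjusted p below 0.05 was 11 in the fit reported and 6 to 13 when 1 library was left out, with the lowest, 6 (0 higher), without fasting replicate 3, while the share of all genes at that p ran from 12.8% to 27.4% over the same fits. Of all genes, 95 were called (29.5% of them higher). The count was 10 with total counts only (80.0% higher), 1395 by DESeq2 (39.1% higher), 32 by limma-voom (53.1% higher), 9 without robust shrinkage (77.8% higher), and 0 to 1187 when 1 library was left out. Leaving out ad libitum replicate 1, 2 or 3 gave 1187, 45 and 1, and leaving out fasting replicate 1 or 3 gave 0. The sample number as a replicate block gave 285 called genes (22.1% higher), 0 called members and 13 members at an unadjusted p below 0.05. Of these 13, 11 were lower and 2 higher. In the same fit 20.5% of all genes were at that p, with 11.0% of all genes lower. Deviations of libraries with the same number correlated at 0.206, -0.0386 and -0.106. Those of libraries with different numbers correlated at -0.136 to 0.194. With 3 libraries a diet, these values cannot tell whether the numbers pair the samples, and the labels do not say. Between settings, 20 log2 fold changes of members near 0 took the other sign. Cpt1a stood at 0.0018 with DESeq2 size factors, 0.0019 with total counts and 0.0022 by DESeq2. When 1 library was left out, those that crossed 0 ran from -0.039 to 0.034 for Cpt1a (above 0 at 0.034, 0.014 and 0.0098), from -0.15 to 0.35 for Cpt1b (below 0 at -0.15 and -0.10), from -0.0080 to 0.067 for Cpt2, from -0.080 to 0.017 for Acadsb, from -0.12 to 0.019 for Acad9, from -0.0083 to 0.20 for Acad10, from -0.050 to 0.033 for Eci2 (above 0 at 0.033 and 0.018), from -0.12 to 0.053 for Acaa2 (above 0 at 0.023, 0.053, 0.00069 and 0.045) and from -0.036 to 0.054 for Etfdh (below 0 at -0.036 and -0.0042). The cause of these differences between settings was not tested. Counting error and the spread between libraries were not separated. The 95% intervals of members had a median half-width of 0.18 on the log2 scale, and 3 libraries against 3 cannot give an exact permutation p below 0.1.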
